A study of Mus musculus with 4 samples.

Results

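The genes described here were the GC-rich genes with no called Foxr2 peak at their starts. They were the protein-coding genes of chromosomes 1 to 19 (GENCODE M21, GRCm38) with a GC content of at least 62% in the 1000 bp centred on the gene start and with no peak of either Foxr2 replicate within 1000 bp of the start of any of their protein-coding transcripts. They numbered 557 of 4681 GC-rich genes, or 11.9%, and they were set against the 3899 GC-rich genes (83.3%) with a peak in both replicates. The remaining 225 GC-rich genes had a peak in 1 replicate and are described only where they help. The members were thus chosen by their measured peak calls and by GC content, and both are given as a description, without a test. Over all 20722 genes, whatever their GC content, 8740 (42.2%) had no peak and 11018 (53.2%) had a peak in both replicates.

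The peaks came from CUT&RUN, in which a nuclease tethered to an antibody cuts free the DNA around a protein, with an antibody against the V5 tag. The group labelled FOXR2_P53LoF_V5 held 2 replicates of cells grown from a C57BL/6J brain tumour model, made by in utero electroporation (IUE) of a vector with V5-tagged FOXR2 together with loss of function of p53. The group labelled G34R_control_V5 held 2 replicates of a line from another IUE model of the same strain, with the genotype H3.3G34R and no V5 tag. All 4 samples were cross-linked with 0.1% formaldehyde for 1 minute. Foxr2 was driven by the CAG promoter of the vector and not by its own, each group stands for a single tumour model, and the labels do not say whether its replicates were separate cultures, so the spread between them may be technical.

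Many mammalian genes start in CpG islands, stretches rich in GC in which the CpG dinucleotide has not been lost. The islands of housekeeping genes are usually active in every cell type and often hold short sites for factors such as ETS proteins, NRF1 and YY1, whereas those of developmental regulators are often silent outside the lineage that uses the gene. FOXR2 belongs to the forkhead family of transcription factors and is switched on in a group of brain tumours. ETS proteins are transcription factors that recognise a GGAA core.

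Promoter sequences are shown for 3 sets of genes, each as the 200 bases before the gene start, 5′ to 3′ along the gene's strand (GRCm38), with the 7 letters of the ETS core CCGGAAG, on either strand, in capitals. None of these stretches overlaps an annotated exon. The first set is the 3 genes with no peak and the highest GC content, shown because base composition alone would place them with the occupied promoters. They are Wnt4 (chr4:137277289-137277488, plus strand), which encodes a secreted Wnt ligand, Cabp7 (chr11:4746779-4746978, minus strand), which encodes a calcium-binding protein, and Gpr27 (chr6:99692479-99692678, plus strand), which encodes an orphan receptor.
Wnt4: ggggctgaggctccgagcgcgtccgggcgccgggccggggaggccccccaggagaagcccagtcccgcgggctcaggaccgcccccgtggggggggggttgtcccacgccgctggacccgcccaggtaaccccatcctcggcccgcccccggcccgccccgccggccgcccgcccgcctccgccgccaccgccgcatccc
Cabp7: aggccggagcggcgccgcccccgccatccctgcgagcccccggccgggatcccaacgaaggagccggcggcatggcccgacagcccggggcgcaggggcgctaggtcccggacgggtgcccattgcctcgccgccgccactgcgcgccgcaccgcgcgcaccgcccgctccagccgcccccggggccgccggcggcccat
Gpr27: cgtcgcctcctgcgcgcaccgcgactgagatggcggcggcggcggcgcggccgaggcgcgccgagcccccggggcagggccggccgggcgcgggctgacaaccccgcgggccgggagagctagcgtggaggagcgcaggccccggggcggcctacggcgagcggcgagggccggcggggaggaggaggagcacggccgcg
No capitals appear in these 3 stretches, and they hold 27, 33 and 37 CpG.

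The second set is the first 3 genes with no peak by number of ETS cores, counted on each strand, with ties ordered by higher GC content, shown because they go against the usual difference between the classes. They are Map10 (chr8:125669618-125669817, plus strand), which encodes a microtubule-associated protein, 9030624G23Rik (chr12:24097247-24097446, minus strand) and Pde8a (chr7:81213396-81213595, plus strand), which encodes a phosphodiesterase of cyclic AMP.
Map10: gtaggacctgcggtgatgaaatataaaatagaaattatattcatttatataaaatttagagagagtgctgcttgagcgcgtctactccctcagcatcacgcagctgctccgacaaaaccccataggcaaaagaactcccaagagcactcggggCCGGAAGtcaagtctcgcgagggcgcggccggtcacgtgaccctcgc
9030624G23Rik: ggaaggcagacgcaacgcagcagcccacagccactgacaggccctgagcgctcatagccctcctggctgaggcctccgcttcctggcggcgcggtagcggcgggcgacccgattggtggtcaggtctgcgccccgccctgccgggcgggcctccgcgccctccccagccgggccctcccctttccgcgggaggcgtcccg
Pde8a: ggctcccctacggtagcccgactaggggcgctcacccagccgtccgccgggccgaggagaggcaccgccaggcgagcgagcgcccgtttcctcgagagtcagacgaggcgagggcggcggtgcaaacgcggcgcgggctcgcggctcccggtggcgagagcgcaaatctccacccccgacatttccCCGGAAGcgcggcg
Pde8a had 1 core, as did other members, and came first among those by GC content. Map10 had 3 ETS cores between 250 bases before and 50 bases after its start, of which 1 lies in the printed stretch. The 2 matches counted for 9030624G23Rik overlap, since the same palindrome was read on each strand, and they straddle the first printed base, so that none is in capitals. Only 32.6% of the 50-base words around its start were found once in the genome.

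The third set is the 3 GC-rich genes whose lower fold of the replicates was highest, shown as examples of occupied promoters. They are Kansl2 (chr15:98534265-98534464, minus strand), a subunit gene of a histone acetyltransferase complex, Rnf44 (chr13:54693908-54694107, minus strand), a RING finger gene, and Mnt (chr11:74830720-74830919, plus strand), which encodes a partner of MAX.
Kansl2: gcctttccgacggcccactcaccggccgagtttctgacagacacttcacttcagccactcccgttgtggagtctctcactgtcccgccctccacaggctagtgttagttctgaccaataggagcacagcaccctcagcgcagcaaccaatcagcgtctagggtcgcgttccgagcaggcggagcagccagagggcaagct
Rnf44: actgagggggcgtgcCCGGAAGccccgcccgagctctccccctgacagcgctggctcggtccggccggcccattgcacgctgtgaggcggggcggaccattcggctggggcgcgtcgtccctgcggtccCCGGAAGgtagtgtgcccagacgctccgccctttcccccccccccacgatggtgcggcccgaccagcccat
Mnt: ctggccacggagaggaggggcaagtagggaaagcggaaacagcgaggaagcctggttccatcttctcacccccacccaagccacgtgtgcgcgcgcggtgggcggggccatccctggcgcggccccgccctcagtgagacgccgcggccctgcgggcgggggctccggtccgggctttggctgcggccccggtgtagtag
Rnf44 shows 2 ETS cores, and Kansl2 and Mnt show none. Around the start of Kansl2, 88.3% of the 50-base words were unique. The fold enrichment over background at their peaks was 59.6 in replicate 1 and 74.2 in replicate 2 at Kansl2, 47.7 and 65.0 at Rnf44, and 46.8 and 69.6 at Mnt. The core is therefore neither present at every strongly occupied start nor absent from every start without a peak.

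The replicates named largely the same genes. Replicate 1 had no peak at 671 GC-rich genes, and 557 of these (83.0%) had none in replicate 2 either. Replicate 2 had no peak at 668, and the share without one in replicate 1 was 83.4%. Of the GC-rich genes with a peak in 1 replicate, 111 had it in replicate 1 with a median fold of 4.42, and 114 had it in replicate 2 with a median fold of 4.11. The highest folds among these peaks were 7.07 and 7.56, against medians of 5.30 and 4.93 over all listed peaks, and the 3899 genes with peaks in both had median folds of 9.28 and 10.8. The Foxr2 lists held 31909 and 38580 peaks, and the lowest fold listed was 3.09 in replicate 1, which corresponds to 6 fragments at the summit over a background of 1.26, and 2.96 in replicate 2, which corresponds to 8 fragments over 2.04. A start without a peak is thus one where no enrichment was called at this depth, which does not show that Foxr2 was absent. The control lists held far fewer peaks, 308 in replicate 1, and these lay at 3 and 2 GC-rich genes and at 0 of the 557 genes without a Foxr2 peak.

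GC content and peaks went together over all genes, and the genes without a peak were what remained at the upper end. Below 40% GC, 95.4% of genes had no peak. The share was 15.2% from 62 to 64% GC, 12.0% from 64 to 66%, 9.95% from 66 to 68%, 11.3% from 68 to 70%, 9.71% from 70 to 75% and 7.85% at 75% or more. The interval of the last bin, 4.82 to 12.6%, overlapped those of all the others but the first. The 10 genes with no peak and the highest GC content were Wnt4 (79.9%), Cabp7 (79.4%), Gpr27 (79.3%), Tmem200b (77.5%), Ank1 (76.7%), Mmp24 (76.4%), Shisa6 (76.1%), Celsr1 (75.5%), Gabbr2 (75.4%) and Lin28b (75.4%). The nearest peak to Wnt4 was 78247 bp away in replicate 1 and 77296 bp in replicate 2. For Ank1, which encodes the membrane adaptor ankyrin 1 and has 13 annotated starts, it was 6347 and 6426 bp away. Lin28b, which encodes an inhibitor of let-7 microRNA maturation, had its nearest peaks at 15014 and 14474 bp.

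**Figure D1:**
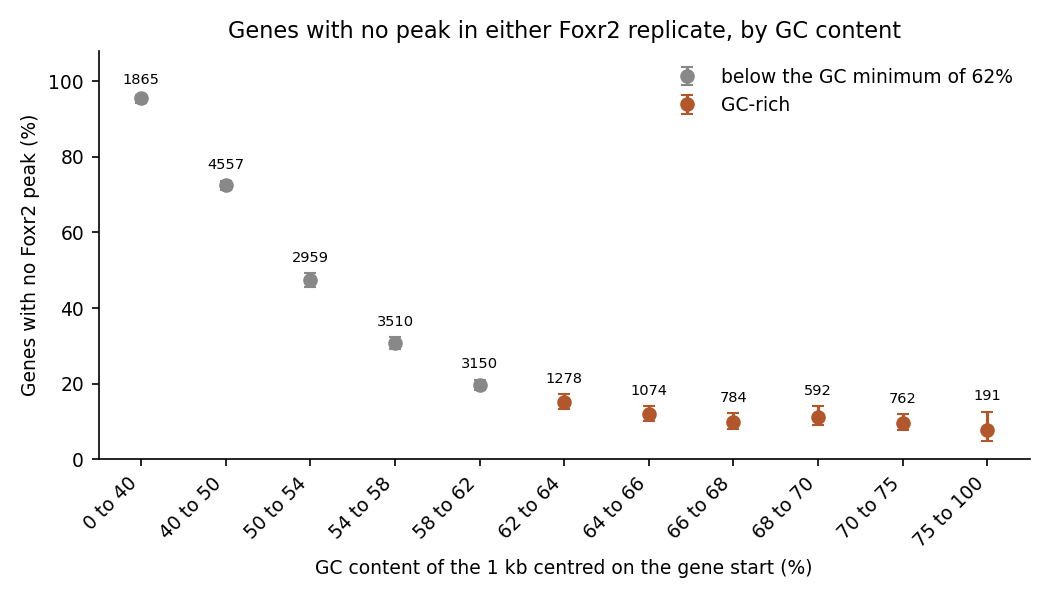
The y axis gives the percentage of protein-coding genes with no peak in either Foxr2 replicate and the x axis the GC content (%) of the 1 kb centred on the gene start; bars are 95% Wilson intervals and the number over each point is the number of genes. The share falls from 95.4% below 40% GC to between 7.85% and 15.2% in the GC-rich bins.

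Both limits of the rule fell inside a continuous range of values. The GC-rich genes with no peak just above the GC limit were Grk3, Kbtbd13 and Msx3, each at 62%, and the genes with no peak just below it were Adcy3, Cldn3 and Dclk3, each at 61.9%. The members with the closest peaks were Wnt5b, at 1021 bp in replicate 1 and 2449 bp in replicate 2, Gjb2, at 1076 and 45549 bp, Sox5, at 1873 and 1083 bp, Pdzd2, at 1095 and 1401 bp, and Gm43517, at 1398 and 1110 bp. Just inside the distance limit lay Plxna4 (962 and 343 bp), Kalrn (951 and 489 bp), Epha6 (740 and 947 bp), Npr2 (235 and 939 bp) and Wnt6 (185 and 939 bp).

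The GC-rich starts without a peak held fewer CpG, relative to their base composition, than those with peaks. CpG observed over expected, the number of CpG in the 1000 bp divided by the number expected from the C and G content, had a median of 0.735 with quartiles of 0.640 and 0.822 over the 557 genes, and of 0.844 with quartiles of 0.761 and 0.922 over the genes with a peak in both replicates. The difference of the medians was -0.110, and genes with a peak in 1 replicate lay between at 0.767. The distributions overlapped widely. The classes also differed at matched GC content, with medians of 0.671 against 0.789 from 62 to 64% GC, 0.699 against 0.807 from 64 to 66%, 0.771 against 0.856 from 66 to 70%, and 0.871 against 0.916 at 70% or more. Read the other way, no peak was found at 39.3% of GC-rich genes with a ratio under 0.6 (92 genes), at 25.3% from 0.6 to 0.7, at 13.1% from 0.7 to 0.8, at 8.03% from 0.8 to 0.9 and at 4.75% (63 genes) at 0.9 or more. Most members still had the CpG content of an island, since 465 of 557 (83.5%) had a ratio of at least 0.6, against 97.1% of the genes with peaks. Repeats covered a median of 6.20% of the 1000 bp at the members.

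The short sites of housekeeping promoters were scarcer at starts without a peak. Of 15 motifs searched on both strands from 250 bases before to 50 bases after the gene start, the ETS core CCGGAAG and the CCAAT box differed by the widest margins in percentage points. It was found at 20 of 557 members, or 3.59% (95% Wilson interval 2.34 to 5.48), at 6.22% of genes with a peak in 1 replicate, at 607 of 3899 genes with peaks in both, or 15.6% (14.5 to 16.7), and at 11% of all promoters of that length. The difference between the members and the genes with peaks was -12.0 percentage points (95% Newcombe interval -13.7 to -9.79). All intervals here cover counting error only and treat genes as independent, which neighbouring and duplicated genes are not. Among genes with peaks in both replicates the core was found at 12.3% of the 1409 with a lower fold of 7.51 or less, at 17% of the 1193 up to 11.2 and at 17.7% of the 1297 above. Of the 641 GC-rich genes with the core, 3.12% had no peak, and of the 4040 without it, 13.3%.

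The scarcity of ETS cores was found at every GC and CpG content examined. From 62 to 64% GC the core was present at 2.58% of members and 20.4% of genes with peaks, and at 70% GC or more at 3.37% and 9.54%. In the 5 bins of CpG observed over expected, the difference ran from -14.4 points at 0.9 or more to -7.06 points (-11.9 to -0.853) between 0.6 and 0.7. It was -10.1 points (-11.7 to -7.94) among genes without a divergent neighbour within 1 kb. Only 18 members had such a neighbour, and 4 of them held the core, so that the difference there, -6.09 points, had an interval from -19.8 to 17.1 that includes 0.

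Sites of other factors of housekeeping promoters differed in the same direction. The NRF1 motif GCATGCGC, bound by a regulator of mitochondrial genes, was found at 1.80% of members and 5.36% of genes with peaks, a difference of -3.57 points (-4.68 to -1.95). The YY1 motif AAGATGGC was found at 0.539% and 4.64% (-4.10 points, -4.89 to -2.90), and the ACTACAA part of the ZNF143 and THAP11 motif at 0.180% and 2.13% (-1.95 points, -2.47 to -1.02). At least 1 of the ETS, NRF1 and YY1 motifs was present at 33 members (5.92%) and at 914 genes with peaks (23.4%). The CCAAT box, bound by NF-Y, was found at 21.7% and 33.8% (-12.1 points, -15.6 to -8.16), the cyclic AMP response element TGACGTCA at 1.08% and 3.64% (-2.56 points, -3.43 to -1.20), and its shorter form TGACG, which the longer letters contain, at 24.2% and 35.2% (-11.0 points, -14.6 to -6.94). These shares were 3.44% for NRF1, 2.91% for YY1, 3.84% for the ACTACAA part, 38.6% for the CCAAT box, 2.43% for the full element and 23.4% for its shorter form over all promoters.

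Motifs outside this group differed as well or had intervals that include 0. The GC box GGGCGG of SP and KLF factors was found at 79.5% of members and 85.6% of genes with peaks (43.7% of all promoters), a difference of -6.10 points (-9.81 to -2.76). The letters CGCG were found at 86.9% and 91.8% (47.1% of all promoters; -4.95 points, -8.11 to -2.24), and GACGC, an alternative site of some forkhead proteins, at 49.2% and 58.3% (31.6% of all promoters; -9.10 points, -13.5 to -4.68). The canonical forkhead site GTAAACA was found at 4 members (0.718%) and at 1.85% of genes with peaks (3.08% of all promoters), with a difference of -1.13 points (-1.77 to 0.0474). The intervals also included 0 for the TATA box TATAAA (4.13% and 2.87%, 12.7% of all promoters; -0.221 to 3.30), the E-box CACGTG (10.6% and 11.5%, 7.81%; -3.47 to 2.04), the SOX site ACAAAG (7.54% and 8.75%, 17.2%; -3.33 to 1.43) and GGACAGCGC, the right side of the site of the neuronal repressor REST (1.80% and 0.975%, 0.521%; -0.0724 to 2.32). A match of letters is not a bound site, and a window without a match says nothing about the factor.

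**Figure D2:**
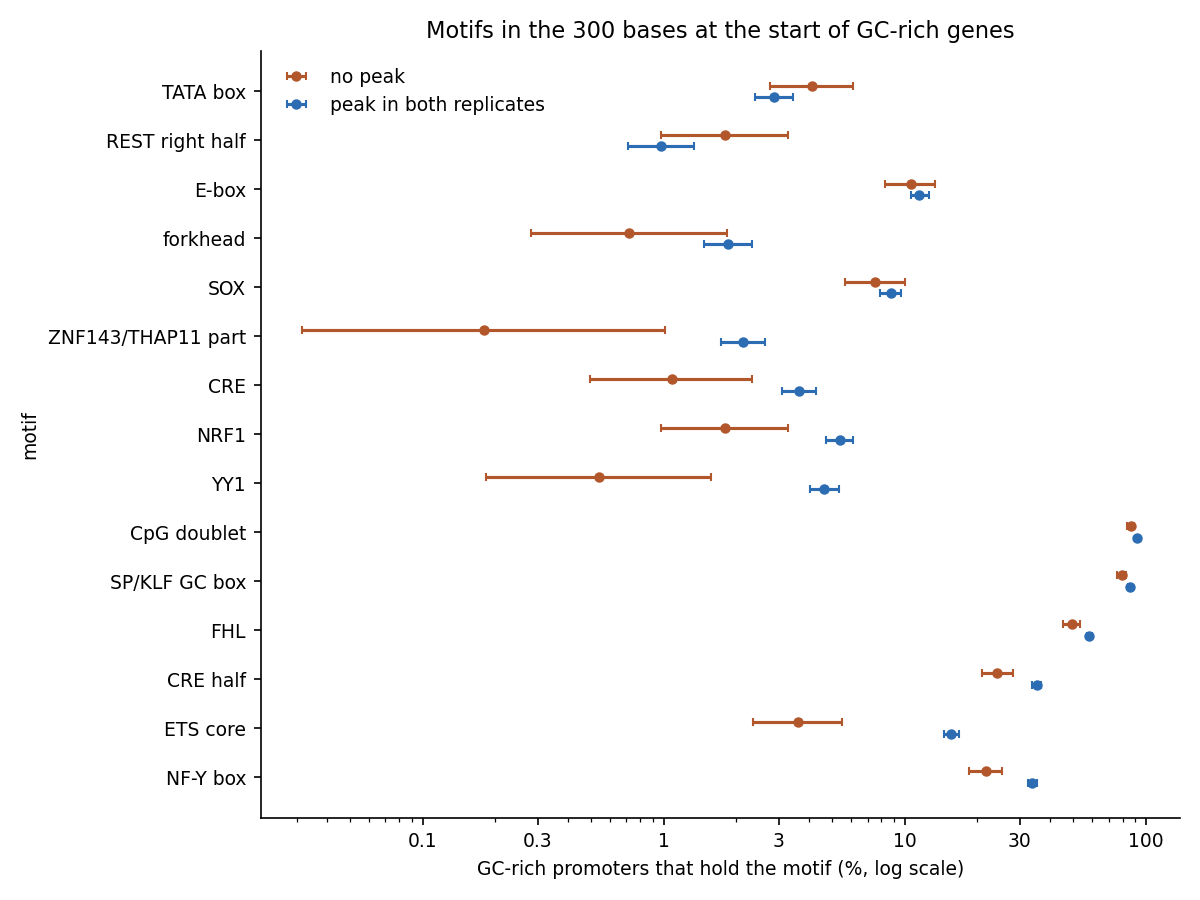
The x axis gives, on a log scale, the percentage of GC-rich promoters whose 300 bases at the gene start hold each motif named on the y axis, with 95% Wilson intervals as bars, for the 557 genes with no peak and the 3899 genes with a peak in both replicates. The ETS core lies at 3.59% and 15.6%, while the intervals overlap for the TATA box, the E-box, the SOX site, the forkhead site and the REST part; the NF-Y box is the CCAAT box and the CpG doublet is CGCG.

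Promoters without a peak had a divergent partner less often than those with peaks in both replicates. Of the members, 18 (3.23%, 2.05 to 5.05) had a protein-coding gene that starts within 1000 bp in the opposite, divergent direction, against 650 genes (16.7%, 15.5 to 17.9) with peaks in both replicates, a difference of -13.4 points (-15.1 to -11.3). A peak at such a partner often lies within reach of both starts, so neighbours of this kind were not independent of the peak call. A single annotated start was found for 270 members (48.5%) and for 28.4% of the genes with peaks. A gene with more starts has more bases in which a peak counts, and 571 genes had no peak when the gene start alone was used. The nearest start of another protein-coding gene lay a median of 39.9 kb from a member and 28.6 kb from a gene with peaks. That neighbour, of any GC content, had a peak in both replicates for 52.6% of members (48.5 to 56.7) and for 72.9% of genes with peaks (71.5 to 74.3), beside 53.2% of all protein-coding genes. The interval of the members' neighbours includes that share.

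No GC-rich gene of the housekeeping machinery was among the members. The 9 lists of this kind held 119 GC-rich genes, 28 for splicing, 25 for the transcription machinery, 17 for translation initiation, 15 for the respiratory chain, 11 and 8 for mitochondrial and cytoplasmic ribosomal proteins, 7 for tRNA synthetases, 5 for the proteasome and 3 for DNA replication. All 119 had a peak in both replicates, against 83.3% of all GC-rich genes. A count of 0 of 119 allows a share without a peak of up to 2.52% when taken as 3 of the total, or 3.13% by the Wilson interval. Below the GC limit 17 of the 498 genes of these lists had no peak, beside 7403 of 14100 genes in no list. Of 64 genes named Zfp, which encode zinc finger proteins, 3 had no peak (4.69%), with an interval of 1.61 to 12.9% that includes the 11.9% of all GC-rich genes. The 3 were Zfp804a, Zfp853 and Zfp541.

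Developmental transcription factors formed a larger share of the members than of the genes with peaks. The 5 lists of such factors held 137 GC-rich genes, of which 55 (40.1%, 32.3 to 48.5) had no peak, 10 had a peak in 1 replicate and 72 in both. They formed 9.87% of the members and 1.85% of the genes with peaks in both, a difference of 8.03 points (5.77 to 10.8). Below the GC limit the contrast was smaller, with no peak at 125 of 216 genes of these lists and at 7403 of 14100 genes in no list. Most members, 382 of 557, were in none of the lists, and of all 4019 GC-rich genes in no list 9.50% had no peak. Wherever genes in no list are given, the 2 lists added after their values were seen are left out too. These were put together from genes seen among the members, which lowers the share.

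Homeobox genes, which pattern the body axis and specify cell types, were the largest of these lists, with 32 of 64 GC-rich genes without a peak (50.0%, 38.1 to 61.9), 5 with a peak in 1 replicate and 27 with peaks in both. Among the 8 GC-rich genes of the Hox clusters, Hoxb9, Hoxc8, Hoxc13, Hoxd1, Hoxd8 and Hoxd13 had no peak, and Hoxa4 and Hoxa13 had a peak in both replicates. Of 5 Nkx genes, 4 had none (Nkx1-1, Nkx2-4, Nkx6-1 and Nkx6-2) and Nkx2-2 had peaks. Of 7 Pou genes, Pou2f2 had no peak, Pou4f2 had a peak in 1 replicate and the other 5 had peaks in both. The 3 homeobox members farthest from a peak of either replicate were Msx1, a factor of the dorsal midline and limb, at 214686 bp in replicate 1 and 213816 bp in replicate 2, Pax2, a factor of the midbrain boundary and kidney, at 170514 and 168606 bp, and Nkx6-1, a factor of the ventral neural tube, at 404023 and 160274 bp. The replicates gave nearly the same distance for Msx1 and Pax2 and a shorter one in replicate 2 for Nkx6-1.

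The other factor families held fewer GC-rich genes and wider intervals. Among them, the intervals of the forkhead, SOX and ETS lists include the 11.9% of all GC-rich genes. Of 22 forkhead genes, the family of Foxr2 itself, 5 had no peak (22.7%, 10.1 to 43.4), namely Foxd2, Foxd3, Foxe1, Foxe3 and Foxn4. The neural crest factor Foxd3 had its nearest peaks at 58479 and 58488 bp. Of 12 SOX genes 3 had no peak (25%, 8.89 to 53.2), Sox5, Sox7 and Sox18, and of 18 bHLH genes 6 (33.3%, 16.3 to 56.3), among them the mesoderm factors Twist1, Twist2 and Tcf15. Twist1 lay 236973 bp from the nearest peak in replicate 1 and 414623 bp in replicate 2. Of 21 other developmental factors 9 had no peak (42.9%, 24.5 to 63.5), the farthest being Wt1, a factor of kidney and gonad, at 108891 and 108294 bp, Tfap2c, a factor of trophoblast and germ cells, at 108856 and 108234 bp, and Gata5, a factor of heart and endoderm, at 60548 and 60771 bp. Of 7 GC-rich genes of the ETS family, whose core motif is described above, 1 had no peak (14.3%, 2.57 to 51.3), namely Fev, a factor of serotonergic neurons, with nearest peaks at 67382 and 26777 bp, and 6 had peaks in both replicates.

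Secreted patterning ligands lacked a peak about as often as homeobox genes. Of 35 GC-rich genes of this list 18 had no peak (51.4%, 35.6 to 67), 7 had a peak in 1 replicate and 10 in both. The 18 held 7 Wnt genes (Wnt2b, Wnt3, Wnt3a, Wnt4, Wnt5b, Wnt9b and Wnt10b), the Wnt antagonists Sfrp2 and Sfrp5, the Wnt enhancers Rspo1 and Rspo4, the hedgehog ligand Ihh, Fgf8, the BMP antagonist Grem1, and Bmp8b, Gdf1, Gdf6 and Gdf10 of the BMP and GDF group. The nearest peaks to Sfrp2 were at 176990 and 169498 bp, those to Gdf6 at 174410 and 80771 bp, and those to Rspo4 at 101883 and 101181 bp. Wnt5b lay at the other end, just outside the distance limit. The ligand genes formed 3.23% of the members and 0.256% of genes with peaks, a difference of 2.98 points (1.78 to 4.80).

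Neuronal genes also formed a larger share of the members. The neuronal lists, for receptors, channels, synapse and axon guidance, held 131 GC-rich genes, of which 45 (34.4%, 26.8 to 42.8) had no peak, and they formed 8.08% of the members and 1.69% of genes with peaks (6.39 points, 4.35 to 8.97). Neurotransmitter receptors had the highest share, 15 of 24 (62.5%, 42.7 to 78.8). The dopamine receptor gene Drd2 lay 197147 and 144842 bp from the nearest peak, the GABA-A receptor gene Gabrb1 456141 and 429950 bp, and the serotonin receptor gene Htr4 70239 and 71867 bp. Voltage-gated channels had 14 of 42 without a peak (33.3%, 21.0 to 48.4), and 13 with a peak in 1 replicate only. The potassium channel gene Kcnc1 (241515 and 77510 bp) and the sodium channel subunit gene Scn4b (82292 and 82516 bp) were among those far from a peak of either replicate.

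Genes of the synapse, of axon guidance and of transport followed with lower shares. Synapse genes had 9 of 30 without a peak (30%, 16.7 to 47.9), among them Syt9 of the vesicle calcium sensors (133310 and 133031 bp), the complexin gene Cplx1 (78809 and 78913 bp) and the active zone gene Rims4 (41530 and 41418 bp). Axon guidance genes had 7 of 35 (20%, 10 to 35.9), led by the ephrin receptor gene Epha8 (85860 and 84899 bp) and the guidance cue genes Slit3 (81968 and 32153 bp) and Slit1 (17820 and 18288 bp). Solute carriers had 14 of 88 (15.9%, 9.72 to 25), the farthest from a peak being Slc35f3 (98950 and 123302 bp), Slc24a4, which encodes a sodium and calcium exchanger (85631 and 151795 bp), and Slc18a2, which encodes the vesicular monoamine transporter (82899 and 80614 bp). Orphan and adhesion receptors had 6 of 21 (28.6%, 13.8 to 50.0), and genes of collagens, laminins and integrins 4 of 20 (20%, 8.07 to 41.6), namely Col8a2, Col15a1, Itga9 and Itgb4. The intervals for axon guidance, solute carriers and this last list include the 11.9% of all GC-rich genes. No gene of the clustered protocadherins reached the GC limit, and 51 of these 57 genes had no peak, beside 7403 of 14100 genes in no list below that limit.

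**Figure D3:**
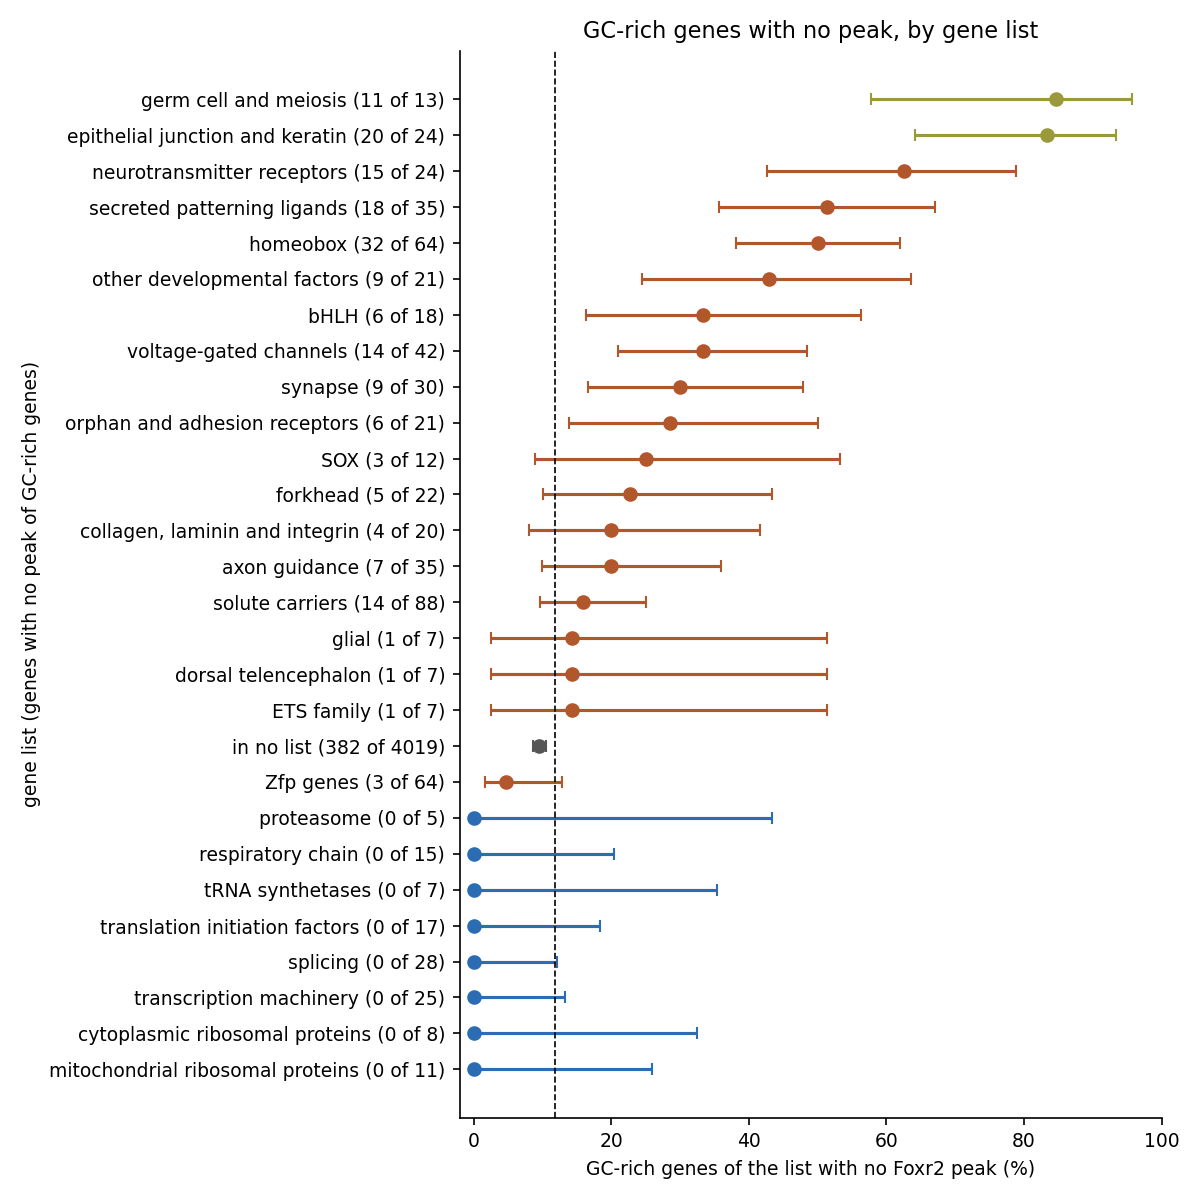
The x axis gives the percentage of GC-rich genes of each list on the y axis with no Foxr2 peak, bars are 95% Wilson intervals, the dashed line is the 11.9% of all GC-rich genes, and lists with at least 5 GC-rich genes are shown. The housekeeping lists (blue) all lie at 0, homeobox genes at 50.0% and neurotransmitter receptors at 62.5%; the 2 uppermost lists (olive) were chosen after the values were seen.

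Developmental factors were also set against the rest at like CpG density. In 4 bins of CpG observed over expected, the share without a peak was higher for developmental factors than for genes in no list. It was 51.9% (14 of 27) against 22.5% between 0.6 and 0.7, 50.0% (17 of 34) against 10% between 0.7 and 0.8, 36.8% (14 of 38) against 6.09% between 0.8 and 0.9, and 21.2% (7 of 33) against 3.61% at 0.9 or more. Below 0.6 there were 5 developmental factors, 3 of them without a peak, and the interval of 23.1 to 88.2% includes the 35.3% of genes in no list. In that bin 10 of 16 neuronal genes had none. Neuronal genes lacked a peak in 23.8% (5 of 21), 35.3% (12 of 34), 30.8% (12 of 39) and 28.6% (6 of 21) of cases in the same 4 bins, with intervals that overlap one another. Between 0.6 and 0.7 the neuronal share was close to the 22.5% of genes in no list, and its interval, 10.6 to 45.1%, includes that value. Whether these genes were transcribed in the line was not tested here. The paper reports high levels of Lhx6, which was a member, by qRT-PCR in lines from this tumour model.

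**Figure D4:**
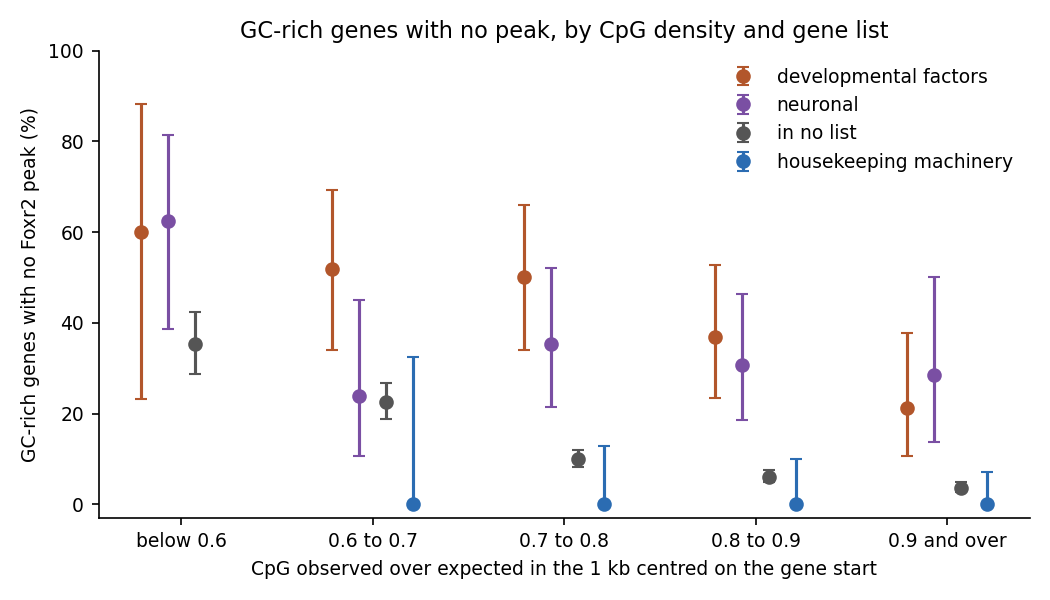
The y axis gives the percentage of GC-rich genes with no Foxr2 peak and the x axis the bin of CpG observed over expected, for developmental factors (5 lists), neuronal genes (5 lists), genes in no list and housekeeping machinery (9 lists); bars are 95% Wilson intervals. Genes in no list fall from 35.3% to 3.61% with rising CpG density, developmental factors from 60.0% to 21.2%, and housekeeping genes stay at 0.

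Few genes of the lineages that the study followed were GC-rich. Of the interneuron genes 4 were, and 3 of them had no peak. These were Gsx2, which specifies the lateral ganglionic eminence, with its nearest peaks at 3722 and 3494 bp, Lhx6, a factor of interneurons from the medial ganglionic eminence, at 30493 and 30241 bp, and Npy, an interneuron neuropeptide gene, at 8869 and 6112 bp. Of 7 dorsal telencephalon genes 1 had no peak (14.3%), namely Emx1 (27897 and 49089 bp). Emx2 (folds of 6.19 and 6.24), Lhx2 (5.74 and 4.93), Neurog1 (6.63 and 5.91), Neurog2 (6.63 and 5.59), Cux1 (7.95 and 5.59) and Cux2 (7.95 and 12.5) had peaks in both. Of 7 glial genes 1 had no peak (14.3%), namely Nkx6-2, a factor of oligodendrocytes (32850 and 5842 bp), and Sox9 (10.2 and 11.5), Nkx2-2 (9.72 and 11.8) and Mbp (8.84 and 12.5) were among those with peaks. Counts this small give intervals of 30.1 to 95.4% for the share of interneuron genes without a peak and of 2.57 to 51.3% for either of the other lists. These intervals overlap, and those of the dorsal telencephalon and glial lists include the 11.9% of all GC-rich genes.

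Most members lay more than 10 kb from any peak. The rule itself leaves out distances up to 1000 bp, and the distance from randomly placed positions was not measured. The nearest peak of either replicate was a median of 25.6 kb away, with quartiles of 8.71 and 62 kb. It lay between 1 and 2 kb from 30 members, between 2 and 5 kb from 56, between 5 and 10 kb from 68, between 10 and 50 kb from 233, between 50 and 100 kb from 81 and farther from 89. The nearest peaks had a median fold of 5.30 in replicate 1 and 5.26 in replicate 2, against medians of 5.30 and 4.93 over all listed peaks, and 39.1% and 32.9% of them lay within 1000 bp of the start of another protein-coding gene. Between 1 and 10 kb from the gene start, away from all starts of the gene, both replicates had a peak for 92 members (16.5%, 13.7 to 19.8) and for 32.8% (31.3 to 34.3) of the genes with peaks at their starts. The latter were chosen for having peaks, and the share over all GC-rich genes was not worked out.

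Peaks inside the gene body were also less frequent than at the genes chosen for having peaks at their starts. The share over all GC-rich genes was not worked out. Both replicates had a peak in the body, away from the starts, at 114 members (20.5%, 17.3 to 24.0) and at 35.8% (34.3 to 37.3) of the genes with peaks at their starts. For genes of up to 10 kb the shares were 4.17% and 10.5%, for 10 to 30 kb 15.3% and 22.3%, for 30 to 100 kb 23.3% and 40.2%, and above 100 kb 44.2% and 70.8%. The intervals of the classes overlapped up to 10 kb (1.92 to 8.79% and 8.49 to 13%) and at 10 to 30 kb (10.4 to 22% and 19.9 to 24.8%), and did not overlap above. The strongest body peaks by the lower fold, named after their values were seen, were at Dok2, with folds of 18.1 and 17.7, Batf2, with 17.2 and 21.7, Gm37240, with 17.2 and 16.4, and Tbx4, a limb factor gene, with 15.9 and 16.8. A member could therefore hold a strong peak elsewhere in its annotated span, which for Gm37240 is 1391 kb. Whether such a peak lay at the start of another gene was not examined.

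**Figure D5:**
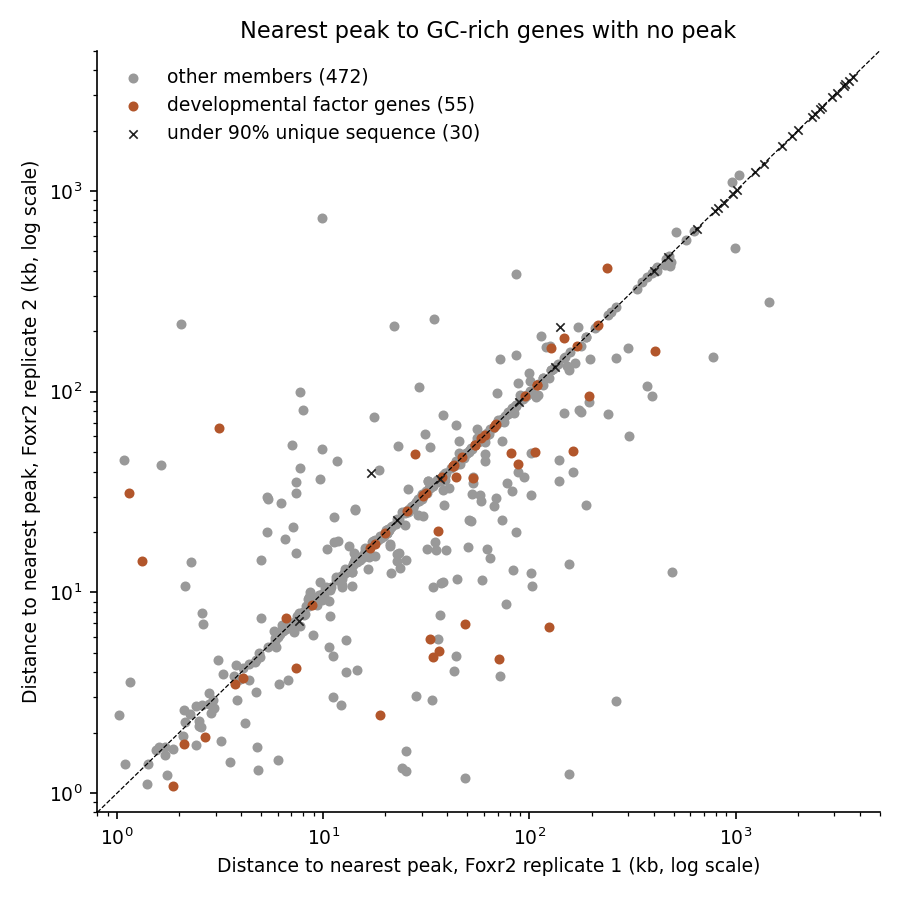
Each point is a gene of the 557 with no peak, placed by its distance (kb, log scale) to the nearest peak of Foxr2 replicate 1 (x axis) and of replicate 2 (y axis); the dashed line marks equal distances. Most points lie along the line with a median distance to either list of 25.6 kb, and the crosses, genes under 90% unique sequence, make up most of those beyond 1000 kb.

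The farthest members lay in sequence that is repeated elsewhere in the genome. Of the members, 30 had fewer than 90% of the 50-base words in the 2000 bp around the gene start found once in the genome, and 23 of these lay on chromosome 14, with starts from 3049285 to 7568566 and at most 41.9% unique words. The 10 genes farthest from a peak, from Gm2897 (3706891 and 3706490 bp) to Gm3164 (2340728 and 2340327 bp), were all of this group. Of all 84 GC-rich genes under this limit, the 30 without a peak made up 35.7% (26.3 to 46.4), 53 had a peak in both replicates and 1 in 1 replicate. For the members of this group the lack of a peak and a lack of placeable reads cannot be told apart. Leaving out such genes left 527 members, 11.5% of 4597, and took the share on chromosome 14 from 17.8% to 5.48%. The median distance to the nearest peak became 24.0 kb and the median CpG observed over expected 0.743, and 3.61% held the ETS core. Among genes with unique sequence the farthest were Zfp804a, a zinc finger gene (1034788 and 1201349 bp), Xkr4 (960564 and 1108551 bp) and the neuronal splicing regulator gene Rbfox1 (628932 and 628434 bp). Over the chromosomes, with these genes left out, the share without a peak ran from 5.48% on chromosome 14 to 17.8% on chromosome 2.

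The number of members depended on what counts as a peak. With part of the stricter filter given in the study's methods (fold above 6, −log10 q above 6, length under 10000 bp and no overlap of 10 bp or more with a control peak), 1147 GC-rich genes (24.5%) had no peak. The study then kept only regions found in both replicates and in open chromatin of the mouse tumour, a step not applied here. The differences in ETS cores, CpG density, developmental factors and housekeeping machinery kept their sign under each of the 12 alternatives tried.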

How the data were processed

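CUT&RUN with an antibody against V5 was compared between 2 Foxr2 and 2 control samples. Per the labels and methods, the authors trimmed reads with Trimmomatic 0.39, aligned them to mm10 with BWA 0.7.17, removed duplicates with Picard 2.26.6 and called peaks in each library with MACS2 2.2.7.1. The deposited fold enrichment is a ratio, made by the authors as fragments at the summit plus 1 over background plus 1, and the deposited −log10 p and q values come from the same library. Read totals were not used here, so precision rests on fragments at the summit, recovered from the equal steps between folds.

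Genes were classed by overlap of any listed peak with the stretch within 1000 bp of a protein-coding start. Sequence features were read from GRCm38.p6 with GENCODE M21 (Python 3.11.15, numpy 2.4.6, pandas 2.3.3). Shares carry 95% Wilson and differences Newcombe intervals; no test was run, because the peak calls chose the genes. Counting was tested on simulated data. A count of 0 allows 3 of the total.

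The members, the 28 gene lists, the motifs and the naming rule were chosen with earlier results of these data known. Genes were named by distance to a peak (in each list the 3 farthest, or all where 5 or fewer), nearness to the limits, GC content, ETS cores and fold, in the interneuron, dorsal telencephalon and glial lists, and otherwise to complete a count. Some results for single genes are not reported here. A further 2 lists were added after their values were seen, and genes in no list leave these out as well.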

Additional observations from a re-analysis of the deposited data

How the results depend on the processing

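With 12 alternatives for each of 6 results, 51 of 72 values stayed within the limits set by the reported value (1.5 times for the count, otherwise its 95% interval), 21 moved and 0 reversed. The count of 557 genes became 1178 with a GC content of at least 58%, 234 with at least 66%, 1018 with GC read in 500 bp and 1147 with the part of the study's peak filter used here. Their shares of GC-rich genes were 15%, 10%, 14% and 24.5%. The share was 13.8% by peak summits and 14.3% without either replicate (lowest and highest 14.3%). The ETS difference became -8.54 points at 66% GC. The developmental factor difference became 5.34 points with GC in 500 bp and 5.69 with the peak filter. The housekeeping difference was -3.80 at 58% GC, -2.06 at 66% and -3.87 with GC in 500 bp. The CpG difference was -0.170, -0.0724 and -0.145 under the same 3 changes and -0.0889 with the peak filter. These changes alter which genes are counted by construction, and no further cause was tested. No paired analysis was possible because no result comes from a test between groups. A peak list limits what can be said at low depth, since fewer than 6 fragments in replicate 1 or 8 in replicate 2 gave no listed peak.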

Other observations

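Many GC-rich genes of epithelia and of germ cells lacked a peak. Both lists were put together after their genes had been seen among the members, so their shares are descriptions of that choice. Of 24 GC-rich genes of epithelial junctions and keratins, 20 had no peak (83.3%, 95% Wilson interval 64.1 to 93.3), 2 had a peak in 1 replicate and 2 in both. Over all GC-rich genes the share without a peak was 11.9%. Whatever their GC content, 87.3% of the genes of this list had no peak, beside 42.2% of all protein-coding genes. The lack of a peak was thus not particular to the GC-rich genes of the list. The 20 GC-rich genes without a peak included the desmosome genes Dsg2, Dsp, Pkp1, Ppl, Evpl and Perp and the tight junction gene Ocln. Among them were also the epithelial splicing regulators Esrp1 and Esrp2, the membrane protease St14 with its inhibitors Spint1 and Spint2, and the gap junction gene Gjb2. The nearest peaks to Dsg2 lay at 187009 bp in replicate 1 and 186694 bp in replicate 2, and those to Dsp at 52827 and 52385 bp. Their median CpG observed over expected was 0.694 in the 20 genes, lower than the 0.735 over all members.

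Of 13 GC-rich genes of germ cells and meiosis, 11 had no peak (84.6%, 57.8 to 95.7) and 2 had one in both replicates. The share over all genes of this list, whatever their GC content, was also 84.6%. The 11 were the RNA helicase genes Ddx4 and Ddx43, the Tudor domain genes Tdrd5 and Tdrd6, the recombinase gene Dmc1, the RNA-binding protein genes Boll and Rbm46, the CTCF paralogue Ctcfl, and Hsf5, Tcfl5 and Zfp541. Their median CpG observed over expected was 0.852, beside 0.844 for GC-rich genes with peaks in both replicates, and the single genes ranged from 0.41 at Ctcfl to 0.99 at Ddx43. Ddx4, the vasa homologue, lay 7688 and 6822 bp from the nearest peaks, and Rbm46 83247 and 82574 bp.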
